A study of Mus musculus with 10 samples.

Results

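Errfi1, which encodes a feedback inhibitor of the epidermal growth factor (EGF) receptor, was followed together with 3 receptors of the ErbB family and 6 of their ligands in mouse lung. The 10 genes were chosen by their symbols from the 24394 gene symbols of the table, and they took up 11 of its 34943 transcript rows with a symbol, with Egfr on 2 rows and each other gene on 1. Errfi1 was chosen because the study had picked it for its differences between these same libraries, together with opposite changes in DNA methylation. Its own differences are therefore given as a description with no test. All 10 genes were present in the table. The libraries came from lung tissue of female BALB/c mice. Saline mice (n = 3) were the controls and received saline only. OVA mice (n = 3) were sensitized by injection of ovalbumin with alum and challenged with ovalbumin through the nose, a protocol used to induce allergic airway inflammation. Herb mice (n = 4) went through that ovalbumin protocol and were given by mouth an ethanol extract of the seeds of Descurainia sophia. The OVA and Herb mice thus had the ovalbumin in common, and no library came from mice that were given the extract without it. The table gives FPKM, that is fragments per kilobase of transcript, divided by the mapped fragments of the library.

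The EGF receptor and its relatives Erbb2 and Erbb3 are tyrosine kinases of the cell surface that pair up when a ligand binds and pass the signal on through the Ras and MAP kinase cascade. Their ligands are made as membrane proteins that proteases such as ADAM17 cut free. Errfi1, also called Mig6 or Ralt, is induced by the receptor's own signal, binds the kinase domain and shuts it off, and in the airway and alveolar epithelium this pathway is known for its role in repair and mucus production.

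Lung markers were found in every library, with Sftpc, the surfactant protein of alveolar type 2 cells, at 210 FPKM or more. The summed FPKM of 6 alveolar type 1 markers, of which only Rtkn2 was listed at 0 in some libraries, ranged from 596 to 710 in Saline, 46.1 to 149 in OVA and 148 to 330 in Herb. Sums over 6 alveolar type 2 markers were 3066 to 4028, 358 to 669 and 873 to 1729 in the same order. For 4 endothelial markers the sums were 301 to 371, 59.0 to 104 and 128 to 252, and for 4 erythroid markers 3188 to 3818, 74.7 to 282 and 605 to 842. The 3 goblet cell markers, of which Muc5ac was listed at 0 in 3 libraries and Clca1 in 2, went the other way, with sums of 0.146 to 2.6 in Saline, 17.0 to 819 in OVA and 37.6 to 622 in Herb. Protein-coding rows held 18.5 to 21.3% of all FPKM in Saline, 3.36 to 4.68% in OVA and 8.44 to 13.6% in Herb. Depth, estimated from the smallest steps in the values, was 14800000 to 29500000 fragments a library. These shifts moved with the groups, and their part in the results was not tested. In bulk tissue, fewer cells of a type and less RNA per cell cannot be told apart. Because the whole table shifted, most differences are also given after every library was rescaled to the same 75th percentile of its values above 0. The marker sums above are as deposited. After rescaling, the endothelial sums of OVA (79.1 to 133) and Herb (125 to 199) overlapped. Those of the alveolar type 2 and erythroid markers stayed apart between these groups.

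Errfi1 lies on chromosome 4 at 150853796 to 150868889 on the plus strand of mm10, with a coding length of 1383 bases. It was the most abundant of the 10 genes in each group by mean FPKM. The 3 Saline libraries stood at 35.8, 57.3 and 42.6 FPKM. The OVA libraries stood at 2.93, 6.71 and 1.78 FPKM. The Herb libraries stood at 22.8, 27.1, 10.8 and 7.55 FPKM. No library of one group reached into the range of another, and the Herb libraries fell into a higher pair and a lower pair.

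Mean Errfi1 levels with their SD were 45.2 ± 11.0 FPKM for the 3 Saline libraries, 3.80 ± 2.58 FPKM for the 3 OVA libraries and 17.1 ± 9.39 FPKM for the 4 Herb libraries. On the log2(FPKM + 1) scale, the OVA minus Saline difference was -3.37 with a standard error of 0.51, and only 0.687% of the 11205 gene sums tested had a lower one. The Herb minus OVA difference was 1.88 with a standard error of 0.47, above 99.2% of gene sums. The Herb minus Saline difference was -1.49 with a standard error of 0.47. After rescaling these 3 differences became -2.70, 1.37 and -1.34, and the OVA and Herb ranges then overlapped. These values describe the libraries from which the gene was picked.

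RefSeq listed 2 starts for Errfi1. The 250 bases upstream of the second one, chr4:150854820-150855069 on the plus strand of GRCm38.p6, are shown because of their motif matches. This window held more matches than any other of the 9 windows read, which covered 7 of the 10 genes and not Erbb3, Ereg and Hbegf. The windows of Egfr (chr11:16751953-16752202, plus strand), Tgfa (chr6:86194972-86195221, plus strand) and Egf (chr3:129755323-129755572, minus strand) are set beside it because these genes carry the contrasts described here. The Tgfa window lies upstream of a start inside the gene, which begins at 86195038. Most of that window and its matches therefore fall within the gene. Capitals mark matches, on either strand, to the CRE (TGACGTCA), the AP-1 site (TGANTCA), the GC box (GGGCGG), the TATA box (TATAAA) and the CCAAT box (CCAAT).
Errfi1: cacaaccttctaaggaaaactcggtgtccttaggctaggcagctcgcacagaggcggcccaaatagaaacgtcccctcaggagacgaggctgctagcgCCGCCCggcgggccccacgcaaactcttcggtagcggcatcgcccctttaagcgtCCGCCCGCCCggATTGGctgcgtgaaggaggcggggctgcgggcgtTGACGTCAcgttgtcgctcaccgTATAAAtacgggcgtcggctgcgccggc
Egfr: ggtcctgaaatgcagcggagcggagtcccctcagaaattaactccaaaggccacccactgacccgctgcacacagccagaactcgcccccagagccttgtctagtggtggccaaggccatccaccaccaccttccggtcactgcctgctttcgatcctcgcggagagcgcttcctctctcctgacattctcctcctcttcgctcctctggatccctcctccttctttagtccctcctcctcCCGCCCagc
Tgfa: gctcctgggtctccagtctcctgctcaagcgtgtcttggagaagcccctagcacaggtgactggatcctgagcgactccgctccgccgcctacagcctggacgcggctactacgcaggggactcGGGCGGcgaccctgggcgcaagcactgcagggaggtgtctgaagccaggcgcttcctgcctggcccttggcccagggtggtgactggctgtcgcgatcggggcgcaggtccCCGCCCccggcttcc
Egf: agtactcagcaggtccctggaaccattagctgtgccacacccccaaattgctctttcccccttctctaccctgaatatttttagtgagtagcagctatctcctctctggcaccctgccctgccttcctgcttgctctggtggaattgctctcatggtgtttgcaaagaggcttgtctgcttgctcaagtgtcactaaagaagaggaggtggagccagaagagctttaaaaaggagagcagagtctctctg

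The Errfi1 window held 1 CRE that began 51 bases upstream of the start, 1 TATA box at 28 bases, 1 CCAAT box and 3 GC boxes, 2 of which overlapped in the letters they share. The other Errfi1 window, which is AT-rich at 38% GC, held none of the 5 motifs. Areg was the only other gene of the 7 whose windows were read that had a CRE, at 61 bases, with a TATA box at 31 bases. Among 32851 windows of the same length over all genes, 1.55% held a CRE, 12.4% a TATA box, 32.7% a GC box, 33.8% a CCAAT box and 6.75% an AP-1 site. Egfr had 1 GC box and no TATA box, and Tgfa had 2 GC boxes. The Egf windows had none of the 5. A match of letters is a description and not a measured site.

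In the table, 2 transcript models assembled from the reads were listed directly before Errfi1, with no locus given. Together they held 14.2 to 24.4 FPKM in Saline, 5.62 to 11.2 in OVA and 11.6 to 25.4 in Herb. Adding them to Errfi1 changed the OVA minus Saline difference from -3.37 to -2.42, and to -1.68 after rescaling. It changed Herb minus OVA from 1.88 to 1.43, and to 0.84 after rescaling, where Errfi1 alone was at 1.37. Whether these models belong to Errfi1 could not be read from the table, so all other values of Errfi1 are of its own row. A RefSeq gene on the opposite strand, 1700045H11Rik, overlaps the 5′ end of Errfi1, and reads of the 2 genes can be separated only if strand was used in the counting.

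**Figure D1:**
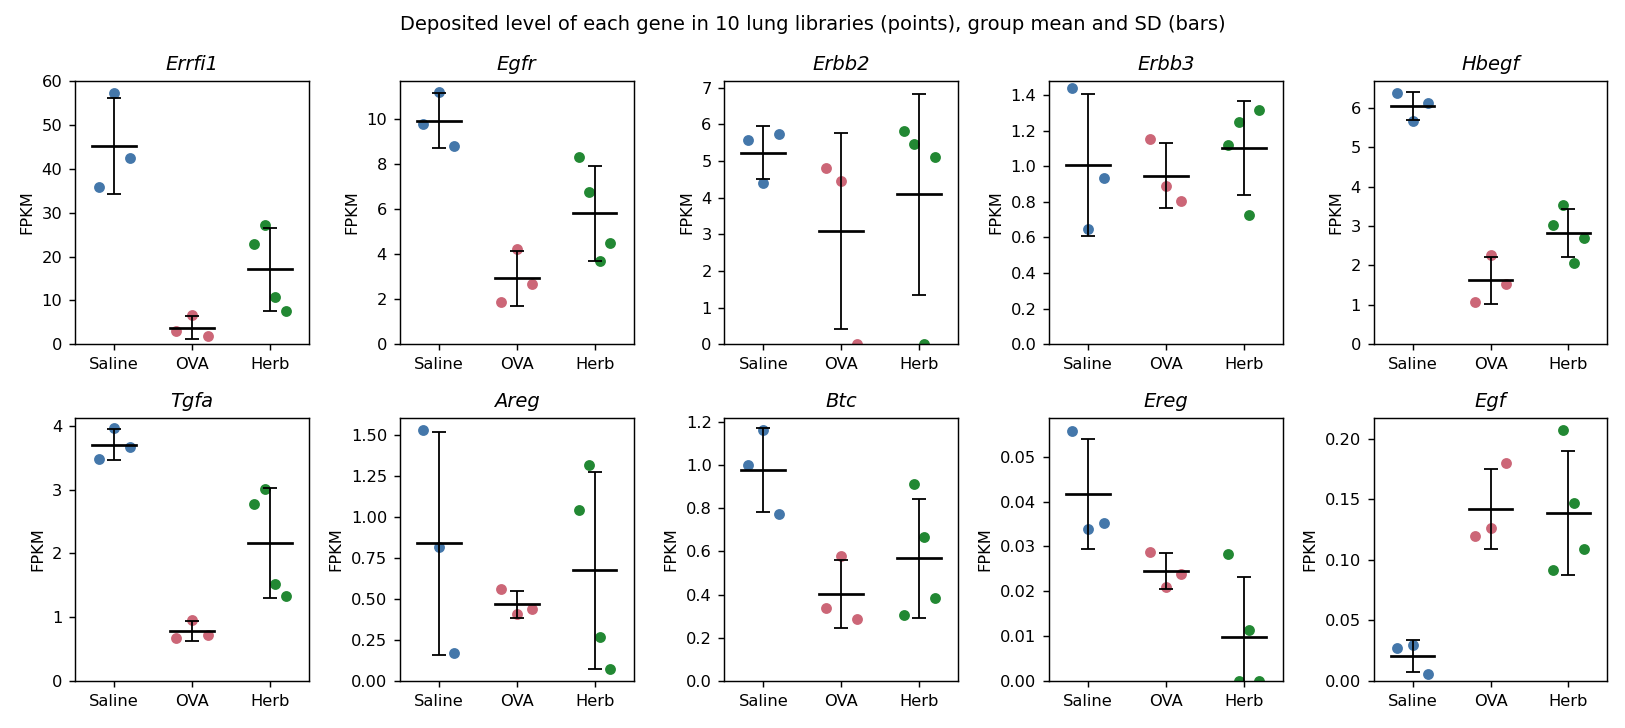
Level of each of the 10 genes (y axis, FPKM, linear, from 0) in the 3 Saline, 3 OVA and 4 Herb libraries (points), with the group mean (long line) and SD (whiskers). Errfi1, Egfr, Hbegf and Tgfa were highest in Saline and lowest in OVA with Herb between them by mean, Erbb3 stayed near 1 FPKM, 2 libraries of Erbb2 were listed at 0, and Egf was lowest in Saline.

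Egfr, the receptor of EGF and of most of the other ligands, is on chromosome 11 at 16752203 to 16913907. Its summed FPKM was 9.82, 11.2 and 8.80 in Saline, 1.86, 4.24 and 2.69 in OVA, and 8.33, 6.78, 3.69 and 4.51 in Herb. The OVA libraries all lay below the Saline libraries, and the Herb libraries overlapped those of OVA. Egfr fell by 1.52 on the log2 scale in OVA vs. Saline (standard error 0.29, limma adjusted p = 0.00165), and fell by 0.88 after rescaling (limma adjusted p = 0.0176). After quantile normalization that call was lost, at -0.59 (limma adjusted p = 0.0872). Egfr rose by 0.79 in Herb vs. OVA (standard error 0.27, limma adjusted p = 0.0418). This call was lost after rescaling, where the difference was 0.30 (limma adjusted p = 0.423), and it was also lost in the limma fits without any 1 of the Saline libraries, OVA replicates 1 or 3 or Herb replicates 1 or 2. In those fits the difference was between 0.58 and 0.79, with limma adjusted p-values from 0.054 to 0.152. In Herb vs. Saline the difference was -0.73 (limma adjusted p = 0.077), and without Herb replicate 1 it was -0.90 (limma adjusted p = 0.0478).

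The 2 rows of Egfr behaved differently. NM_207655 has a coding length of 3630 bases over 28 coding exons. NM_007912 ends early, with 1965 coding bases over 16 exons, of which the first 1925 are shared with the long form, and truncated EGF receptor forms of this kind lack the kinase domain. The long row stood at 8.45, 8.94 and 7.54 FPKM in Saline, at 1.83, 2.13 and 1.22 in OVA, and at 4.23, 4.57, 3.52 and 1.31 in Herb. The short row stood at 1.36, 2.29 and 1.26 in Saline, at 0.0235, 2.10 and 1.48 in OVA, and at 4.10, 2.21, 0.169 and 3.20 in Herb. The long row was thus low in every OVA library and in Herb replicate 4, while the short row spread over the range of all groups.

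Tested as single rows among 12393 rows, the long row fell by 1.78 in OVA vs. Saline (limma adjusted p = 0.00126) and fell by 1.15 in Herb vs. Saline (limma adjusted p = 0.0286). Its difference in Herb vs. OVA was 0.63 (limma adjusted p = 0.123). The short row differed by -0.39, 0.59 and 0.20 in OVA vs. Saline, Herb vs. OVA and Herb vs. Saline, with no limma adjusted p below 0.427. The long row made up 79.6 to 86.1% of Egfr FPKM in Saline, 45.2 to 98.7% in OVA and 29.1 to 95.4% in Herb. These shares overlapped in each comparison, with exact permutation p = 0.4 for OVA vs. Saline, where 3 libraries against 3 cannot give less than 0.1. The rows share most of the short form's coding bases, so the way in which reads were divided between them is uncertain.

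Erbb2, the receptor without a ligand of its own, is on chromosome 11 at 98412484 to 98437716. Its row stood at 5.57, 4.40 and 5.73 FPKM in Saline, at 4.80, 4.46 and 0 in OVA, and at 5.81, 5.47, 0 and 5.11 in Herb. OVA replicate 3 and Herb replicate 3 were listed at 0 while the other 8 libraries lay between 4.40 and 5.81 FPKM. In the same 2 libraries the 2 assembled models whose numbering encloses the Erbb2 row stood at 3.96 and 5.73 FPKM, and in the other 8 libraries at 0.0839 to 0.311. Summed with these models, Erbb2 came to means and SDs of 5.41 ± 0.603 FPKM over 3 Saline, 4.55 ± 0.517 FPKM over 3 OVA and 5.74 ± 0.306 FPKM over 4 Herb libraries.

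As deposited, the Erbb2 row differed by -0.97 in OVA vs. Saline (standard error 0.84, limma adjusted p = 0.342). The sum over the locus differed by -0.21 (standard error 0.12, limma adjusted p = 0.164), and rose by 0.45 after rescaling (limma adjusted p = 0.0274), so that its direction depended on the scaling. The sum differed in Herb vs. OVA by 0.28 (limma adjusted p = 0.0659) and by -0.25 after rescaling (limma adjusted p = 0.262). This sum was chosen after the zeros had been seen.

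**Figure D2:**
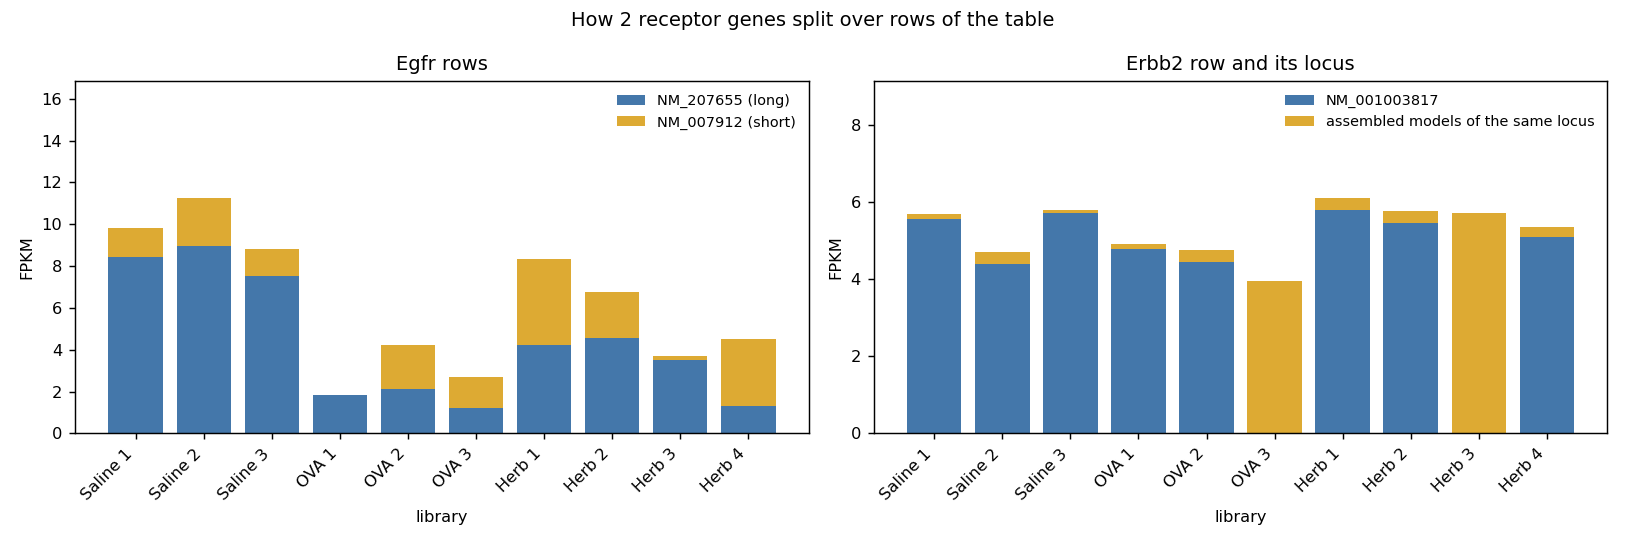
FPKM (y axis, from 0) of Egfr and Erbb2 in each of the 10 libraries (x axis), stacked by the rows of the table that hold them. In the left panel the long Egfr row is 1.22 to 2.13 FPKM in OVA against 7.54 to 8.94 in Saline while the short row varies within each group, and in the right panel the Erbb2 row is at 0 in OVA 3 and Herb 3, where assembled models of the locus hold 3.96 and 5.73 FPKM.

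Erbb3, the receptor for neuregulins whose own kinase is weak, is on chromosome 10 at 128567523 to 128589635. It stood at 1.44, 0.647 and 0.934 FPKM in Saline, at 1.15, 0.887 and 0.802 in OVA, and at 1.12, 1.25, 0.728 and 1.32 in Herb. The 3 groups overlapped throughout. Its OVA minus Saline difference was -0.03 (standard error 0.19, limma adjusted p = 0.905) as deposited and 0.38 after rescaling (limma adjusted p = 0.128), above 83.4% and 78.4% of all gene sums. The sign of its difference depended on the scaling.

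Hbegf encodes heparin-binding EGF, a ligand of EGFR and ErbB4, and is on chromosome 18. It stood at 6.36, 5.67 and 6.13 FPKM in Saline, at 1.06, 2.26 and 1.53 in OVA, and at 3.02, 3.52, 2.05 and 2.69 in Herb. Saline libraries were above all others, and the lowest Herb library was below the highest OVA library. Hbegf fell by 1.45 on the log2 scale in OVA vs. Saline (standard error 0.19, limma adjusted p = 2.4e-04), and fell by 0.89 after rescaling (limma adjusted p = 0.0016). It also fell by 0.90 in Herb vs. Saline (standard error 0.18, limma adjusted p = 0.0115), and fell by 0.75 after rescaling (limma adjusted p = 0.00981). It rose by 0.56 in Herb vs. OVA (standard error 0.18, limma adjusted p = 0.032), but after rescaling the difference was 0.14 (limma adjusted p = 0.519) and with libraries scaled to their protein-coding sum it was -0.024 (limma adjusted p = 0.93). Without OVA replicates 1 or 3 or Herb replicates 1, 2 or 4 the deposited difference was 0.40 to 0.57 and the limma adjusted p 0.0537 to 0.116.

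Tgfa encodes transforming growth factor alpha, a ligand of EGFR made by epithelium and macrophages, and is on chromosome 6 at 86195038 to 86275744. It stood at 3.48, 3.96 and 3.67 FPKM in Saline, at 0.667, 0.953 and 0.721 in OVA, and at 2.78, 3.01, 1.52 and 1.32 in Herb. The 3 groups did not overlap, and the Herb libraries fell into the same higher and lower pairs as those of Errfi1. Tgfa fell by 1.40 in OVA vs. Saline (standard error 0.21, limma adjusted p = 4.76e-04), and fell by 0.94 after rescaling (limma adjusted p = 0.00292). It rose by 0.79 in Herb vs. OVA (standard error 0.20, limma adjusted p = 0.0138). After rescaling this difference was 0.46 (limma adjusted p = 0.127), with the 2 groups still apart. In Herb vs. Saline it differed by -0.62 (limma adjusted p = 0.0501), a value that was -0.72 and -0.74 with limma adjusted p-values of 0.0464 and 0.0233 without Herb replicates 1 and 2. The summed FPKM of 4 macrophage markers, none of them at 0 in any library, was 90.9 to 194 in Saline, 81.8 to 280 in OVA and 351 to 622 in Herb. Most of this sum was Chil3, at 69.7 to 593 FPKM over all libraries. Adgre1 (1.74 to 8.52), Mrc1 (10.1 to 29.4) and Marco (0.083 to 1.37) were far lower. As deposited, the sum was higher in every Herb library than in any other. After rescaling, the sums of Herb (277 to 622) and OVA (132 to 357) overlapped. The part of this sum in the Tgfa values was not tested. In lavage fluid, the study counted fewer inflammatory cells in extract-treated than in OVA mice.

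Counted together, the 5 genes other than Errfi1 that passed the filter of a mean of 1 FPKM were Egfr, Erbb2, Erbb3, Hbegf and Tgfa. In OVA vs. Saline 3 of these 5 fell and none rose, where 57.9% of all gene sums tested fell. After rescaling the same 3 fell, where 29.7% of all gene sums fell and 13.6% rose. With libraries scaled to their protein-coding FPKM sum the 3 calls were lost. The OVA minus Saline differences were then -0.24 for Egfr, -0.32 for Hbegf and -0.45 for Tgfa (limma adjusted p = 0.414, 0.106 and 0.0632), against a median of 0.35 over all gene sums. The 1 call of the 5 was Erbb3, which rose by 0.74 (limma adjusted p = 0.0142), where 4239 of 11205 gene sums rose and 987 fell. Errfi1 itself was at -2.01 on that scale. In Herb vs. OVA 3 of 5 rose, where 44.0% of all gene sums rose. After rescaling 0 of 5 rose by limma (0.286% of all gene sums did, and 1 of the 5, Tgfa, had an unadjusted p under 0.05). In Herb vs. Saline 1 of 5 fell, where 22.7% of all gene sums fell as deposited and 15.7% after rescaling. The OVA vs. Saline and Herb vs. OVA comparisons share the OVA libraries, so opposite signs in them are not separate evidence.

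The median difference over all gene sums was -0.75 in OVA vs. Saline and 0.48 in Herb vs. OVA as deposited. It was -0.19 and 0.05 after rescaling. Relative to the median as deposited, Errfi1 was lower by 2.62 in OVA vs. Saline against 0.77 for Egfr, 0.70 for Hbegf and 0.66 for Tgfa. In Herb vs. OVA, Errfi1 was 1.40 above the median, against 0.31 for Egfr, 0.08 for Hbegf and 0.31 for Tgfa. Adding 1 to FPKM shrinks differences more for genes at a low level, such as Tgfa. With 0.1 added instead, Errfi1 was 1.49 above the median in Herb vs. OVA, Egfr 0.30, Hbegf 0.13 and Tgfa 0.62. In OVA vs. Saline the differences minus the median were then -2.70 for Errfi1, -0.79 for Egfr, -0.89 for Hbegf and -1.11 for Tgfa. The order of Egfr, Hbegf and Tgfa thus depended on the value added.

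**Figure D3:**
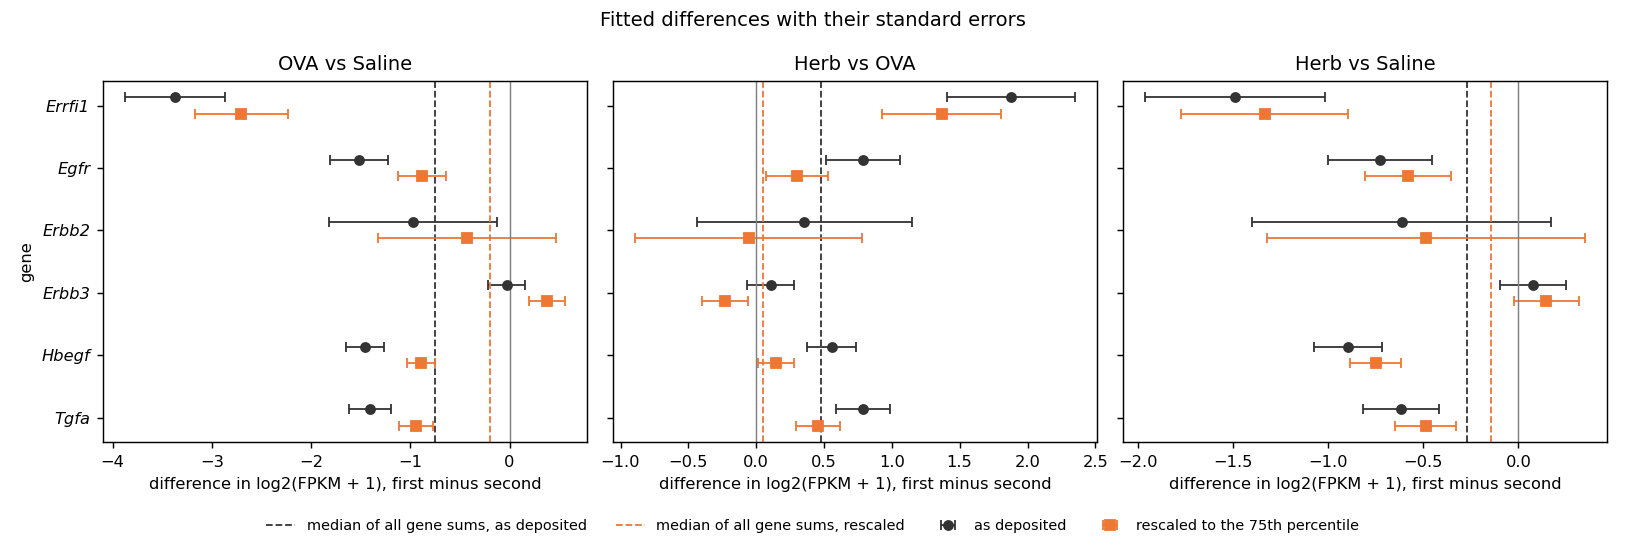
Differences in log2(FPKM + 1) with their standard errors (x axis, first group minus second) for the 6 genes above the filter (y axis), as deposited (circles) and after rescaling to the 75th percentile (squares), with the median of all gene sums as dashed lines. Errfi1, which the study picked for its differences in these libraries, is farthest from the median in each comparison. It is at -3.37 against -0.75 in OVA vs. Saline and at 1.88 against 0.48 in Herb vs. OVA as deposited. Hbegf sits at 0.56 in Herb vs. OVA, near that median.

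Ratios within a library do not depend on its scaling. Errfi1 per Egfr was 3.65, 5.10 and 4.84 in Saline, 1.58, 1.58 and 0.660 in OVA, and 2.74, 4.0, 2.92 and 1.68 in Herb. OVA libraries were below all Saline and Herb libraries, whereas Saline and Herb overlapped. With the neighbouring assembled models added to Errfi1, the mean ratio was 6.54 in Saline, 4.15 in OVA and 5.88 in Herb, and the Saline and OVA ranges then overlapped (5.09 to 7.62 and 2.75 to 5.49), as did those of OVA and Herb (4.25 to 7.75). Errfi1 per Hbegf had means of 7.56, 2.29 and 5.83 and Errfi1 per Tgfa had means of 12.1, 4.63 and 7.51 in Saline, OVA and Herb. In both of these ratios the OVA and Herb ranges overlapped, with OVA up to 2.97 and Herb from 2.81 per Hbegf, and OVA up to 7.04 and Herb from 5.70 per Tgfa.

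The ratios of Hbegf and Tgfa to Egfr overlapped between the groups. Hbegf per Egfr had means and SDs of 0.617 ± 0.0999 over 3 Saline, 0.559 ± 0.0215 over 3 OVA and 0.509 ± 0.102 over 4 Herb libraries, and these overlapped (two-sided exact permutation p = 0.4, 0.571 and 0.229 for OVA vs. Saline, Herb vs. OVA and Herb vs. Saline). Tgfa per Egfr had means of 0.375, 0.284 and 0.371 (exact permutation p = 0.3, 0.171 and 0.914). Erbb3 per Egfr was 0.0576 to 0.146 in Saline, 0.209 to 0.620 in OVA and 0.134 to 0.292 in Herb. The OVA and Saline libraries did not overlap in this ratio (exact permutation p = 0.1, the smallest that 3 against 3 allows, and 0.309 after Benjamini-Hochberg adjustment over 27 such comparisons). With 4 libraries against 3 the smallest possible p is 0.0571, so none of the exact tests here could have passed a threshold of 0.05.

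**Figure D4:**
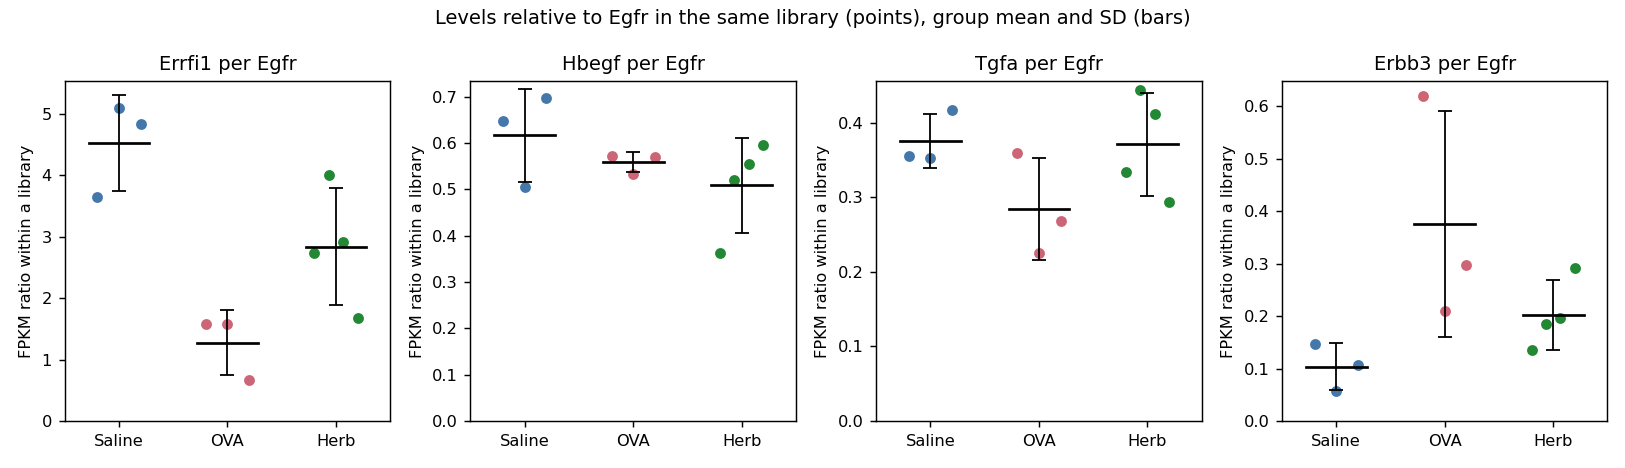
FPKM of Errfi1, Hbegf, Tgfa and Erbb3 divided by that of Egfr in the same library (y axis, ratio, from 0), by group, with each library as a point and the group mean and SD as lines. Errfi1 per Egfr averages 4.53 in Saline, 1.27 in OVA and 2.84 in Herb, while Hbegf per Egfr stays between 0.362 and 0.697 in all 10 libraries and Erbb3 per Egfr is highest in OVA.

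The other 4 ligands were below the filter of a mean of 1 FPKM and were tested only in a fit with no filter over 20819 gene sums. Areg, amphiregulin, which epithelium and type 2 immune cells make, stood at 1.53, 0.815 and 0.170 FPKM in Saline, at 0.560, 0.406 and 0.436 in OVA, and at 1.04, 1.31, 0.267 and 0.0717 in Herb. The spread within Saline and within Herb was larger than any difference between groups, with limma adjusted p = 0.616 for OVA vs. Saline. The lowest Areg values, in Saline replicate 3 and Herb replicate 4, corresponded to 4.25 and 1.69 fragments. Btc, betacellulin, stood at 1.00, 1.16 and 0.773 in Saline, at 0.339, 0.580 and 0.288 in OVA, and at 0.305, 0.911, 0.667 and 0.386 in Herb. It fell by 0.50 in OVA vs. Saline (limma adjusted p = 0.0368, where 33.9% of all gene sums in that fit fell). That call was lost after rescaling, with a difference of -0.21 (limma adjusted p = 0.353), with the protein-coding sum, at 0.094 (limma adjusted p = 0.692), and without Saline replicates 1 or 2 or OVA replicates 1 or 3, with differences of -0.49 to -0.43 and limma adjusted p-values of 0.0881 to 0.112.

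Egf itself was the 1 gene of the 10 that rose in OVA vs. Saline as deposited. It is on chromosome 3 at 129677574 to 129755322 on the minus strand. It stood at 0.0269, 0.0295 and 0.00548 FPKM in Saline, at 0.120, 0.126 and 0.180 in OVA, and at 0.0917, 0.207, 0.147 and 0.109 in Herb. All 7 OVA and Herb libraries were above all 3 Saline libraries, at a level that corresponds to 7.43 to 17.3 fragments a library against at most 3.02. Summed over libraries, about 48 fragments in OVA and 47 in Herb stood against 5 in Saline, which gives ratios per mapped fragment of 7.54 (exact 95% interval 3.02 to 24.3) and 7.39 (2.95 to 23.8) that cover counting error only.

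In the fit with no filter, the Egf difference on the log2(FPKM + 1) scale was 0.16 in OVA vs. Saline (limma adjusted p = 0.00927, where 2.61% of all gene sums rose) and 0.16 in Herb vs. Saline (limma adjusted p = 0.0276, where 2.18% rose), a scale that understates the change of so low a gene. The exact permutation p was 0.1 and 0.0571, the smallest that these group sizes allow. Among 1894 gene sums with a mean of 0.05 to 0.2 FPKM, 7.44% were higher without overlap in OVA vs. Saline and 8.71% in Herb vs. Saline. The Herb vs. Saline call was lost without any 1 of the Saline libraries or Herb replicates 3 or 4, with differences of 0.15 to 0.17 and limma adjusted p-values of 0.0508 to 0.0901. In Herb vs. OVA the Egf groups overlapped, with a difference of -0.0049 (limma adjusted p = 0.96).

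Ereg, epiregulin, was at the limit of detection, with at most 3.51 fragments in any library and 0 in Herb replicates 2 and 4. Its values of 0 to 0.0558 FPKM stood at about the floor of 3 fragments a library or below it in each group, so no fold change is given. Ordered by mean FPKM, the genes ran Errfi1, Egfr, Hbegf, Erbb2, Tgfa, Erbb3, Btc, Areg, Ereg and Egf in Saline. In that group the ranges of Hbegf and Erbb2 overlapped, as did those of Erbb3, Btc and Areg with each other. In OVA the order ran Errfi1, Erbb2, Egfr, Hbegf, Erbb3 and Tgfa, and over these 6 genes each range overlapped that of its neighbour.

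The proteins that release the ligands were examined next. Of 5 genes, 4 passed the filter, and 3 of these fell in OVA vs. Saline and 3 rose in Herb vs. OVA, where 57.9% of all gene sums fell and 44.0% rose. Adam10, a sheddase that cuts EGF and betacellulin, had means and SDs of 24.5 ± 0.454 FPKM over 3 Saline, 6.38 ± 2.19 over 3 OVA and 13.6 ± 2.10 over 4 Herb libraries. It fell by 1.84 in OVA vs. Saline (limma adjusted p = 1.99e-04), and fell by 1.13 after rescaling (limma adjusted p = 0.00141). Adam17, the main sheddase of the other ligands, rose by 0.79 in Herb vs. OVA (limma adjusted p = 0.0143), a call that was lost after rescaling (difference 0.25, limma adjusted p = 0.273). Timp3, which inhibits the cutting by ADAM17, fell by 3.32 on the log2 scale, from 145 ± 52.9 FPKM over the 3 Saline to 15.3 ± 11.3 over the 3 OVA libraries (mean ± SD, limma adjusted p = 0.00226). It fell by 2.57 after rescaling (limma adjusted p = 0.0103). After rescaling 3 of 4 fell in OVA vs. Saline, where 29.7% of all gene sums fell. With the protein-coding sum 2 fell, where 987 of 11205 gene sums fell. After quantile normalization 0 were called by limma, where 1917 of 11205 gene sums fell and 2087 rose. In Herb vs. OVA 0 of 4 were called under each of these scalings.

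Among 19 other negative regulators of the pathway, 18 passed the filter. In OVA vs. Saline 11 of these fell, where 57.9% of all gene sums fell, with a median difference of -0.80 against -0.75 over all gene sums. After rescaling 4 fell and 2 rose, where 29.7% and 13.6% of all gene sums did, with a median of -0.24 against -0.19. With the protein-coding sum 0 fell and 7 rose, where 987 of 11205 gene sums fell and 4239 rose. The direction of this list thus depended on the scaling, as did that of all gene sums. Spry1, a Sprouty inhibitor of Ras signalling, fell by 2.11 (limma adjusted p = 8.4e-04) and fell by 1.47 after rescaling (limma adjusted p = 0.0121). Dusp6, a MAP kinase phosphatase, fell by 2.30 (limma adjusted p = 0.00751), and after rescaling its difference was -1.73 (limma adjusted p = 0.0719). In Herb vs. OVA 6 of 18 rose, where 44.0% of all gene sums rose, Spry4 by 1.39 (limma adjusted p = 0.00716) and Spred1 by 0.92 (limma adjusted p = 0.00846) among them. After rescaling 0 of 18 were called, where 0.286% of all gene sums rose. These shares are near the background of all gene sums, and Errfi1 was lower than each of the 18 in OVA vs. Saline, by description only.

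Of 23 genes of signal transduction, 20 passed the filter, and 14 fell in OVA vs. Saline, where 57.9% of all gene sums fell. After rescaling 5 of 20 fell, where 29.7% of all gene sums fell. With the protein-coding sum 1 fell and 6 rose, where 987 of 11205 gene sums fell and 4239 rose. Here too the direction depended on the scaling, as did that of all gene sums. Araf, a Raf kinase, fell by 2.14 (limma adjusted p = 0.00186) and fell by 1.66 after rescaling (limma adjusted p = 0.00799). Stat3 fell by 1.89 (limma adjusted p = 0.00965), with a difference of -1.23 after rescaling (limma adjusted p = 0.0719). Of the 20, 10 rose in Herb vs. OVA, Stat3 by 1.3 (limma adjusted p = 0.0497) among them, where 44.0% of all gene sums rose, and 0 of 20 after rescaling.

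Of 10 immediate early targets, 8 passed the filter and 3 fell in OVA vs. Saline, where 57.9% of all gene sums fell, with a median difference of -0.17 against -0.75 over all gene sums. Ier3 fell by 1.64 (limma adjusted p = 0.00143) and fell by 0.97 after rescaling (limma adjusted p = 0.0186). Jun, a part of AP-1, fell from a mean of 35.5 to 16.2 FPKM (limma adjusted p = 0.00273), with a difference that was -0.35 after rescaling (limma adjusted p = 0.103). After rescaling 1 of 8 fell and 3 rose, where 29.7% of all gene sums fell and 13.6% rose, so the direction of this list depended on the scaling. Only 1 of the 8, Jun, rose in Herb vs. OVA, by 0.71 (limma adjusted p = 0.0261), where 44.0% of all gene sums rose, and 0 of 8 after rescaling. Of the remaining ErbB receptor and ligands (Erbb4, Epgn and the neuregulins), only Nrg4 passed the filter, with a difference of -0.04 in OVA vs. Saline (limma adjusted p = 0.841).

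The gene sums whose levels ran most like Errfi1 over the 10 libraries after rescaling were Ccny (Pearson r = 0.994), Gpm6a (0.987), Rora (0.987), Rab33b (0.986) and Dnajc18 (0.985). The points share their libraries and their group means, so these values are a description. Ccny stood at 20.1 to 23.4 FPKM in Saline, 3.25 to 6.35 in OVA and 8.11 to 15.8 in Herb, with the Herb libraries in the same order of higher and lower pairs as in Errfi1. Of the family, Tgfa was at rank 16 of 11204 gene sums (r = 0.977), Egfr at rank 940 (r = 0.892) and Hbegf at rank 1563 (r = 0.843). Erbb2 had r = 0.359 and Erbb3 r = -0.655, against a median of 0.249 over all gene sums. As deposited, Erbb2 had r = 0.509 and Erbb3 r = 0.039 against a median of 0.734, so that the sign for Erbb3 and the place of Erbb2 above or below the median depended on the scaling.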

How the data were processed

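RNA from the lungs of 10 mice was sequenced as paired-end reads. As the labels and the study's methods state, the authors trimmed reads with cutadapt 1.10, aligned them to mm10 with HISAT2, assembled transcripts with StringTie 1.3.3b and read out abundance with ballgown. They deposited 1 table of FPKM with 66548 transcript rows, of which 31605 are assembled models without a symbol or coordinates. The sources differ on whether the library kit kept strand. Samples were grouped by their labels. The labels do not say more of the replicates than that they are separate samples, so p-values measure the spread between them.

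Rows were summed per symbol. Gene sums with a mean of at least 1 FPKM were tested as log2(FPKM + 1) with limma 3.58.1 in R 4.3.3, with an intensity trend, 3 group means and Benjamini-Hochberg adjustment over all 11205 sums. A call is an adjusted p under 0.05. The deposited unit allowed no count model. Within-library ratios and the low ligands were compared by two-sided exact permutation tests with scipy. The fit recovered known changes on simulated data. These were put only into genes at a higher level, were larger than the called differences of the family, and came with no shift of the whole table. The simulation therefore cannot speak for smaller changes, for genes at a low level or for such a shift. Depth was estimated from the most frequent product of FPKM and transcript length below 0.1 FPKM, taken as 1 fragment, with 116 to 199 values within 1% of it in each library. Positions and promoters came from RefSeq on GRCm38.p6, and promoter windows were read for 7 of 10 genes. Rescaling to the 75th percentile, quantile normalization, scaling to the protein-coding sum, other filters and pseudocounts, single rows, a replicate block and leaving out each library were tried. The genes and lists were chosen with earlier results of these data known. Up to 2 called genes without overlap were named per list and direction in OVA vs. Saline and in Herb vs. OVA, and the 5 most like Errfi1. One gene that this rule names is not reported here.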

Additional observations from a re-analysis of the deposited data

Results flagged for a closer look

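The Erbb2 row of Herb replicate 3, at 0 FPKM, stood apart from the other 3 Herb libraries by Dixon's test, with a gap of 0.879 of the group's range. The 2 assembled models of the Erbb2 locus stood apart in the same library, at 5.73 FPKM. Over 27 quantities tested in the Herb group these were the 2 that were picked out, and chance picks out about 1 group in 20. The assembled models, which enter no group comparison of the row itself, were above the highest Saline library (0.311 FPKM) in OVA replicate 3 at 3.96 FPKM and in Herb replicate 3 at 5.73 FPKM.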

How the results depend on the processing

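Of the 456 values of the log2 differences under other settings, with Errfi1 left out because it was not tested, 366 kept their direction and their side of the threshold. Some settings, such as leaving out a library of the group not compared or fitting only the 2 groups compared, cannot change a difference. They can change only its p-value, so this count overstates how far the directions were tried. Calls over all gene sums were 6853 in OVA vs. Saline, 4982 in Herb vs. OVA and 2921 in Herb vs. Saline. Quantile normalization gave 4004, 157 and 841, and a mean of at least 5 FPKM gave 3180, 2722 and 1716, where fewer genes were tested. Herb vs. OVA gave 55 calls after rescaling to the 75th percentile and 621 with the protein-coding sum. With 1 library left out the calls ranged from 6143 to 6862, from 3225 (without OVA replicate 1) to 5069 and from 897 (without Saline replicate 2) to 3224, with 1354 to 1611 without Saline replicates 1 or 3 or Herb replicates 3 or 4. Called genes of the family other than Errfi1 numbered 3, 3 and 1. They were 2 in OVA vs. Saline after quantile normalization, where Egfr was lost, 1, 0 and 0 with the protein-coding sum, 5, 1 and 2 with no filter, and 1, 1 and 0 with a mean of at least 5 FPKM. Herb vs. OVA gave 0 after rescaling and after quantile normalization, by limma, and 1 with only the 2 groups compared. Herb vs. Saline gave 2 with single transcript rows. With 1 library left out the number was 3 in OVA vs. Saline in each fit, 1 to 3 in Herb vs. OVA (1 without OVA replicates 1 or 3 or Herb replicates 1 or 2) and 1 to 3 in Herb vs. Saline (3 without Herb replicate 1, 2 without Herb replicate 2).

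Opposite signs were found mostly for differences that were not called as deposited, and among called ones for Hbegf in Herb vs. OVA and Btc in OVA vs. Saline. In OVA vs. Saline, Erbb3 was 0.38 after rescaling, 0.41 after quantile normalization and 0.74 with the protein-coding sum (limma adjusted p = 0.0142), Areg 0.036 and 0.32 after rescaling and with the protein-coding sum, Btc 0.094 and Erbb2 0.12 with the latter, and Erbb2 with its locus 0.45 after rescaling. In Herb vs. OVA, rescaling, quantile normalization and the protein-coding sum gave -0.056, -0.10 and -0.23 for Erbb2, -0.23, -0.31 and -0.39 for Erbb3, -0.13, -0.12 and -0.24 for Areg and -0.052, -0.065 and -0.14 for Btc. Hbegf was -0.024 with the protein-coding sum, and Erbb2 with its locus was -0.25 after rescaling. In Herb vs. Saline, Erbb2 with its locus was 0.077 as deposited and 0.21 after rescaling, and Areg 0.079 with the protein-coding sum. With 1 library left out, signs changed for Erbb3 in OVA vs. Saline (-0.16 to 0.12) and Herb vs. Saline (-0.055 to 0.23), for Areg in OVA vs. Saline (-0.55 to 0.0088), Herb vs. OVA (-0.061 to 0.31) and Herb vs. Saline (-0.43 to 0.13), for Erbb2 in Herb vs. OVA (-0.47 to 1.03) and Herb vs. Saline (-0.86 to 0.058), and for Egf in Herb vs. OVA (-0.033 to 0.019). The cause was not tested.

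Same-numbered libraries did not deviate together over the whole table (9 pairs, r from -0.00869 to 0.0953). With so few libraries a group this cannot settle whether the numbers pair the mice, and the labels do not say. Errfi1 was highest in replicate 2 of each group (57.3, 6.71 and 27.1 FPKM). Its standard error in OVA vs. Saline was 0.28 with a replicate block and 0.51 without it. With a replicate block the calls over all gene sums were 6603, 4040 and 1342, the family's 3, 2 and 1, and Egf in Herb vs. OVA was 0.0074 and Areg in Herb vs. Saline 0.052. Depth limits Egf and Ereg, which rest on fewer than 20 fragments a library, and Areg, which rests on 1.69 to 28.0.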
